A study of Homo sapiens with 2 samples.

Results

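A set of 41 genes that carry out DNA replication or mark the passage from G1 into S phase was followed in K562 cells after 6 h of treatment with inhibitors of transcription and of chromatin regulators. The genes were taken by symbol from a list with no cut on measured values, though the list was chosen with earlier results of these data known. All 41 were found among the 57905 gene lines of the count tables. All 41 also passed the filter on low counts that left 10312 genes to be tested. K562 is an established chronic myeloid leukaemia line of erythroid character. Treated cells were lysed in 96-well plates and their mRNA was read at the 3′ ends by MAC-seq, in which reverse transcription gives each well a barcode before all wells are combined into 1 library per plate. The 2 plates had the same layout and held 192 wells, of which 24 received the vehicle DMSO. The other wells held 74 treatments. IBET_762 and GSK503 had 4 wells, AZ5576, ActD, JQ1 and A485 had 6, and the remaining 68 treatments had 2, with equal numbers on each plate. All groups shared the cell line, the medium and the exposure of 6 h. The annotation names a compound for each well and gives no dose, which leaves responses to different compounds unmatched for dose. Duplicates are described as technical, so each p-value reflects variation among wells and not among cultures.

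Apart from A159, A241, Phendione and EtOH, the treatments shown in the plots fall into 5 kinds by their main known targets. Other treatments are described only where they changed a member. Transcription or its kinases are blocked by ActD (actinomycin D, which binds DNA), Triptolide (which targets the TFIIH helicase XPB), DRB and AZ5576 (CDK9), THZ1, LDC4297 and YKL5124 (CDK7), THZ531 (CDK12 and CDK13) and OTS964 (CDK11). BET bromodomain proteins are bound by JQ1 and IBET_762 and degraded through dBET1. A485 inhibits the acetyltransferases CBP and p300. Panobinostat, Quisinostat and Vorinostat inhibit histone deacetylases, and OkadaicAcid inhibits the protein phosphatases PP1 and PP2A. A159, A241 and Phendione are known here by name only, and EtOH is ethanol, a solvent.

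Replication is prepared in G1, when the origin recognition complex (with ORC1 and ORC6), CDC6 and CDT1 load the ring of MCM2 to MCM7 on DNA. In S phase CDC45 and the GINS complex turn that ring into an active helicase, DNA polymerase alpha with its primase begins each new strand, the RFC complex loads the sliding clamp PCNA, and polymerases epsilon and delta extend the strands. RPA covers single-stranded DNA, FEN1 and LIG1 trim and join the lagging-strand fragments, and ribonucleotide reductase (RRM1 and RRM2) and thymidylate synthase (TYMS) supply deoxynucleotides. Cyclin E (CCNE1 and CCNE2) drives CDK2 at the G1/S boundary, and SLBP binds the stem-loop of replication-dependent histone mRNAs. Many of these genes are known targets of E2F transcription factors, which RB holds back until late G1.

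Promoter sequence was matched for 34 of the 41 genes in the RefSeq promoter table (build GRCh38.p14), as 42 windows of 300 bases from 250 before to 50 after an annotated start site. The letters TTTNNCGC, an E2F consensus with its middle pair left free, stood on either strand in 20 of the 42 windows (47.6%), against 6.89% of all 35116 windows of that length. CCAAT, the letters bound by NF-Y, stood in 24 windows (57.1%, against 34.6% of all windows). The cell cycle homology region elements TTTGAA and TTTAAA stood in 1 window (2.38%, against 15.2%) and in 4 windows (9.52%, against 12.2%). These matches describe letters in a window and were not tested. The 200 bases before the start sites of CDT1 (chr16:88803589-88803788, plus strand), PCNA (chr20:5126623-5126822, minus strand), RRM2 (chr2:10122539-10122738, plus strand) and SLBP (chr4:1712320-1712519, minus strand) are shown because these 4 genes are followed well by well below and their promoters differ in these letters. Each is written 5′ to 3′ on the strand of its gene, and capitals mark TTTNNCGC and CCAAT in either orientation (as the reverse complement when on the other strand). In these stretches the CDT1 promoter has 1 match to TTTNNCGC and none to CCAAT, PCNA has 1 and 3, RRM2 has none and 3, and SLBP has none of either.
CDT1: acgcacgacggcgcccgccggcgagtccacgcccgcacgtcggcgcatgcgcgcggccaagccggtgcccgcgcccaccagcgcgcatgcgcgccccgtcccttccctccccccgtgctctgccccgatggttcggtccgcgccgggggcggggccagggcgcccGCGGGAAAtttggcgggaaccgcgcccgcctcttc
PCNA: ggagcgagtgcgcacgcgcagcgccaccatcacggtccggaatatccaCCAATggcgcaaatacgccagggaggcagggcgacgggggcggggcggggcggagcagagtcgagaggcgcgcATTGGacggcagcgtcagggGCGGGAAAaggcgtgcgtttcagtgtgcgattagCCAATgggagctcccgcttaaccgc
RRM2: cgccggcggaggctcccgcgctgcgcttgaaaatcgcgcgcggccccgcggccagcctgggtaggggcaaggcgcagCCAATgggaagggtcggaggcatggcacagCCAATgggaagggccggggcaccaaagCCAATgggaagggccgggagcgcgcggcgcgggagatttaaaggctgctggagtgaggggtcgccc
SLBP: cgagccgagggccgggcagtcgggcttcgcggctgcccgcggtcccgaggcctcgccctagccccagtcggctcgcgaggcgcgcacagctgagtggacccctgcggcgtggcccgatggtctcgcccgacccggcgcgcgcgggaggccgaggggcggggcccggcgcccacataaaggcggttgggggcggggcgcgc

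Counts to human genes ran from 173553 to 1906446 per well. The first plate column, placed by well numbers that run in rows of 12, was shallower (median 265248, against 800352 elsewhere). It holds 8 of the 24 DMSO wells, 4 of the 6 JQ1 wells and 4 of the 6 A485 wells. For each named gene called under JQ1 or A485 the difference without that column is therefore also given, in most cases with its call. The DMSO wells and the wells of 17 methyltransferase inhibitors differed in 1239 genes (12% of those tested). By edgeR's test 5 members were among them, all higher in DMSO. On the log2 scale the differences were 0.21 for CDC6, 0.20 for RFC2, 0.32 for RFC4, 0.29 for RRM2 and 0.65 for CCNE2. That comparison kept the first-column DMSO wells, and no inhibitor well lies in that column. Inhibitors of this pool changed genes themselves, such as A366 (1.78% of all genes against DMSO) and CPI_360 (3.36%). Whether DMSO, the inhibitors or well position gave the offset was not tested. The 10 erythroid markers summed to 23225 to 36944 CPM (read counts scaled to the library size) in each well. The 16 markers of other cell types summed to 88.3 to 214 CPM, most of it CD3D and EPCAM, while ELANE and KRT5 were at 0 in all wells. In wells of whole cells, fewer cells in S phase and less mRNA per cell cannot be told apart.

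Of the 3034 pairs of a member and a treatment, 138 passed an adjusted p of 0.05 by edgeR's quasi-likelihood test against DMSO, 47 with a higher and 91 with a lower level. At least 5 members passed in 11 treatments, 1 to 4 passed in 16 and none in 47, where 0.204% to 5.03% of all genes passed. In these 47, between 0 and 12 members had an unadjusted p under 0.05, DESeq2 called 2 members and limma-voom 0. Across treatments 35 members passed at least once, and MCM6, GINS4, RFC5, POLA1, PRIM2 and RRM1 passed in none. In most treatments the share of members called was near the share of all genes called, as the plot of both shares shows, and such counts say nothing particular about these genes.

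**Figure D1:**
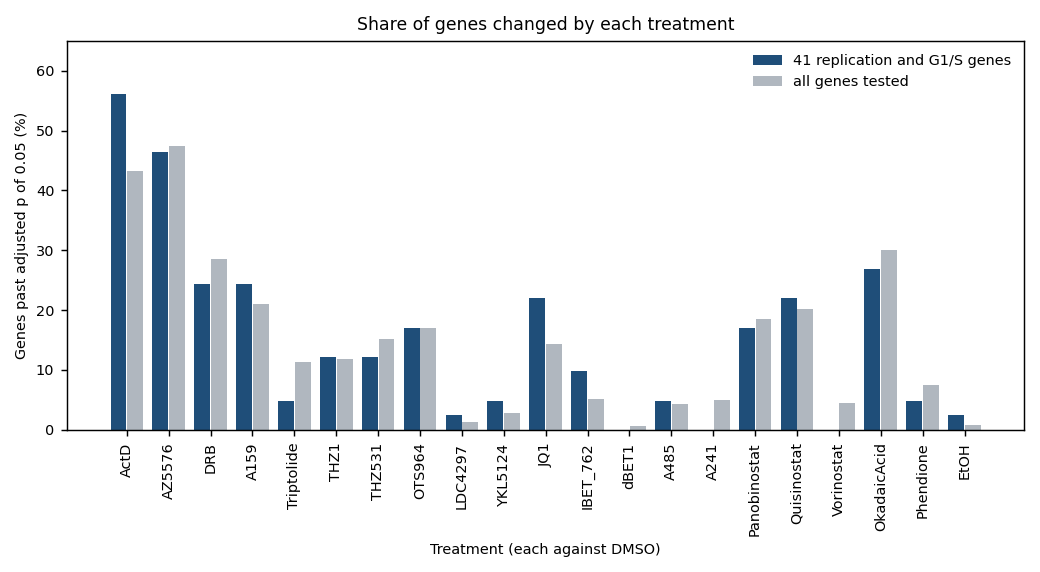
Share of the 41 replication and G1/S genes (blue) and of all 10312 genes tested (grey) that passed an edgeR adjusted p of 0.05, in percent, for 21 treatments against DMSO. Under ActD the members' share was 56.1% against 43.2%, and under Triptolide 4.88% against 11.3%.

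ActD changed the most members, 7 higher and 16 lower, which is 56.1% of them where 43.2% of all genes passed. AZ5576 raised 3 and lowered 16 (46.3%, against 47.3% of all genes). The median log2 difference of the 41 genes was -0.32 under ActD and -0.27 under AZ5576, beside -0.11 and -0.14 for all genes. DRB raised 3 and lowered 7 (all genes 28.5%), A159 raised 1 and lowered 9 (21.1%), and OTS964 raised 1 and lowered 6 (17.1%). THZ1 raised 1 and lowered 4 (11.8%), THZ531 lowered 5 (15.2%) and Triptolide lowered 2 (11.3%). The CDK7 inhibitors LDC4297 and YKL5124 changed 1 and 2 members (all genes 1.29% and 2.84%). Falls thus outnumbered rises under each of these compounds that changed at least 5 members. The same held over all genes. Higher and lower genes numbered 1914 and 2543 under ActD, 1985 and 2896 under AZ5576 and 1325 and 1617 under DRB. They numbered 961 and 1211 under A159, 872 and 888 under OTS964, 561 and 657 under THZ1 and 750 and 821 under THZ531. The chromatin compounds differed: JQ1 raised 7 and lowered 2 (14.4% of all genes), IBET_762 raised 3 and lowered 1 (5.12%), A485 raised 2 (4.37%), both lost without the first column, Panobinostat raised 5 and lowered 2 (18.5%) and Quisinostat raised 5 and lowered 4 (20.2%). OkadaicAcid raised 8 and lowered 3 (30.1%), with a median of 0.16 over the 41 genes beside -0.07 over all. No member passed edgeR's test under dBET1 (0.553% of all genes), A241 (5.03%) or Vorinostat (4.54%), where 7, 8 and 3 members had an unadjusted p under 0.05. DESeq2 called 0, 1 and 0 members there, and limma-voom 0, 0 and 0. Against the wells of the 17 methyltransferase inhibitors in place of DMSO, A241 raised 5 members and A485 raised 8.

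**Figure D2:**
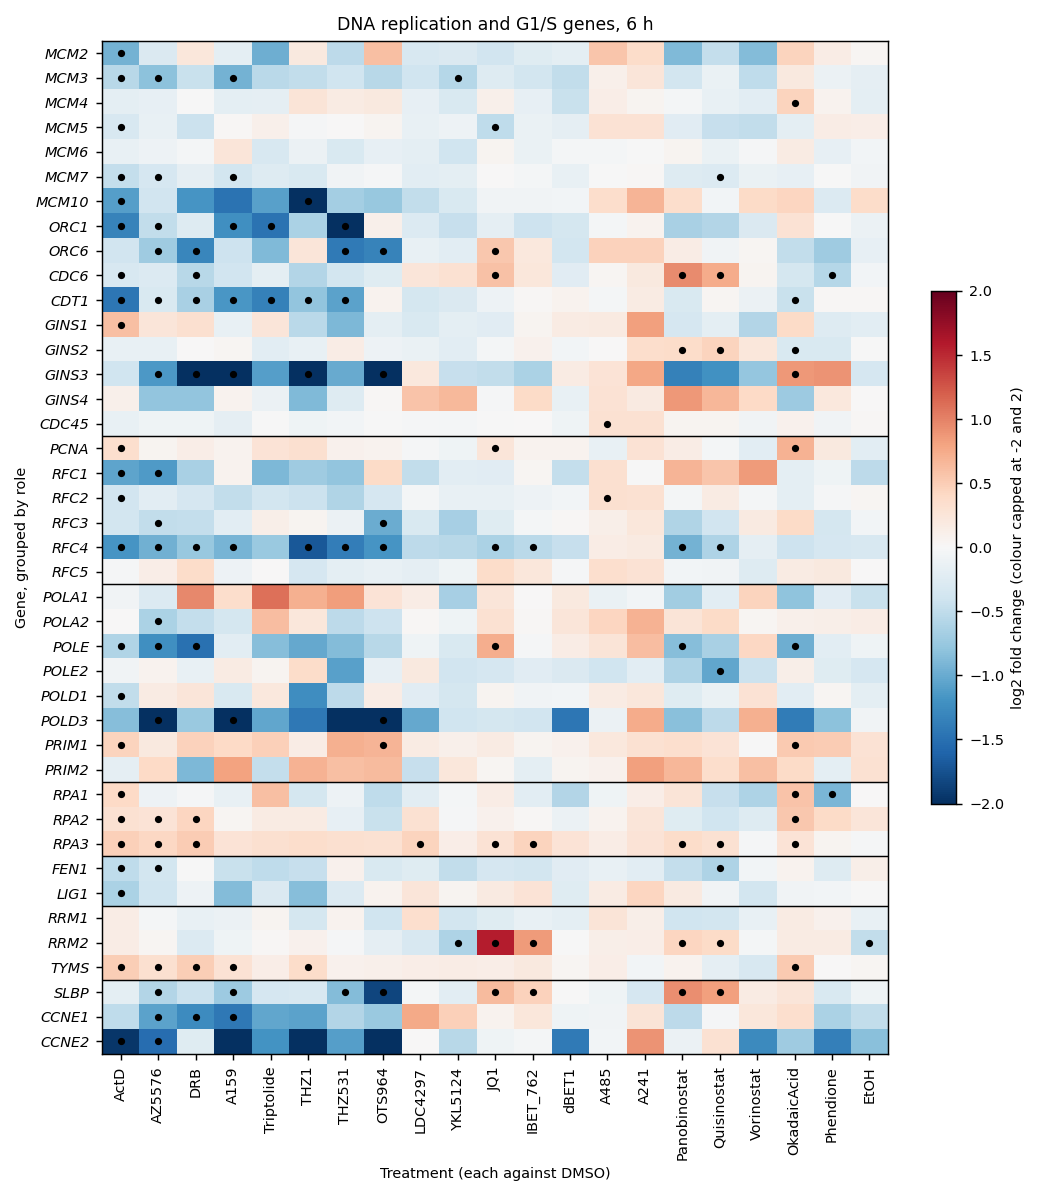
Log2 fold change against DMSO of the 41 genes (rows, grouped by role with black lines) under 21 treatments (columns), with colours capped at -2 and 2; dots mark an edgeR adjusted p below 0.05. RFC4 is dotted in 11 of these columns, all blue, and RRM2 is darkest red under JQ1 (1.58).

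The direction of these counts depends on how wells are scaled. TMM factors assume that most genes hold their share of a well's mRNA. Scaled by the ERCC spike RNAs, which were added with the reverse transcription mix, the median of all genes shifted by -0.74 under AZ5576, -0.92 under ActD, -0.88 under DRB, -0.82 under THZ531, -0.75 under OTS964 and -0.32 under JQ1, against -0.03 under OkadaicAcid. On that scale 40 of the 41 members passed as lower and 0 as higher under both ActD and AZ5576, with medians of -1.24 and -1.01, and none of the members called under DRB (32), THZ1 (34), THZ531 (36), OTS964 (31), A159 (33) or Triptolide (30) was higher. JQ1 gave 1 higher, RRM2, and 13 lower, OkadaicAcid 3 and 1, Panobinostat 2 and 2, Quisinostat 2 and 3, IBET_762 1 and 1, and A485 and A241 0 and 0, while Phendione lowered 8. Human reads per ERCC read were lower in the first-column DMSO wells than in the other DMSO wells. Most JQ1 and A485 wells lie in that column. ERCC scaling was not run without it, so how far well position moved their ERCC values was not tested. With library size alone ActD gave 3 higher and 24 lower, AZ5576 0 and 31, DRB 0 and 15, A159 0 and 16, THZ1 0 and 8, OTS964 0 and 13, JQ1 4 and 3, Quisinostat 4 and 9, Panobinostat 5 and 3, OkadaicAcid 6 and 6, IBET_762 3 and 3, A485 2 and 0, A241 1 and 0, and Phendione 0 and 3. Against the methyltransferase inhibitor wells IBET_762 gave 4 and 0, Phendione 2 and 0, DRB 2 and 3, and JQ1 8 and 1. Values below are on the TMM scale, relative to the other mRNAs of a well, and the plot of the 41 genes under the 3 scalings shows the offset. Each rise of a member that passed under ActD, AZ5576, DRB, A159, THZ1 or OTS964 had a value below 0 on the ERCC scale. For PRIM1 under OTS964 that value was close to 0.

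**Figure D3:**
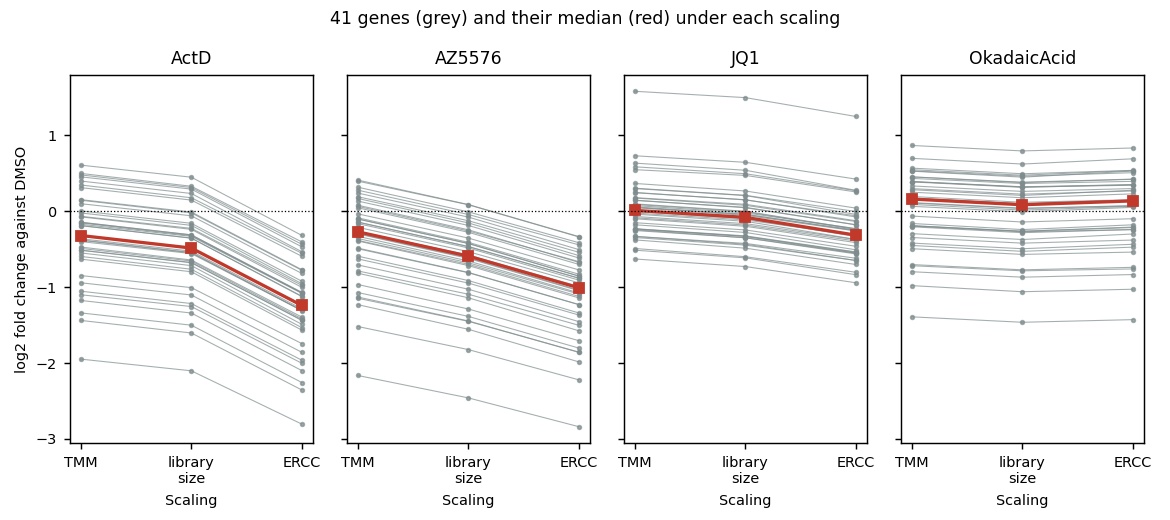
Log2 fold change against DMSO of each of the 41 genes (grey) and their median (red squares) under TMM, library size and ERCC scaling, for ActD, AZ5576, JQ1 and OkadaicAcid. The median drops from -0.32 to -1.24 under ActD and from -0.27 to -1.01 under AZ5576, and stays between 0.08 and 0.16 under OkadaicAcid.

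Among the 16 genes of the helicase and its loading, ActD lowered 8 and raised 1, AZ5576 lowered 6, A159 lowered 5, DRB 4 and THZ1 and THZ531 3 each. CDT1, which brings the MCM ring to the origin, was lower in 8 treatments and higher in none. Its normalised level was 48.9 to 122 (median 85.5) CPM in the DMSO wells. Under ActD the 6 wells held 20.1 to 43.6 (median 31.2), all below the lowest DMSO well, and under AZ5576 53.0 to 81.9 (median 66.1), all within the DMSO range. CDT1 fell in both, with log2 differences of -1.44 (SE 0.16, adjusted p = 4.91e-17) under ActD and -0.30 (SE 0.12, adjusted p = 0.0285) under AZ5576 by edgeR. On each plate alone the ActD difference was -1.24 and -1.62. The wells held 36.3 and 29.3 CPM under Triptolide, 38.1 and 37.0 under A159 and 36.5 and 43.7 under THZ531, again below every DMSO well. The differences were -1.34, -1.16 and -1.07, by edgeR with adjusted p of 6.40e-05, 2.85e-05 and 0.00128. Under DRB (43.7 and 65.3 CPM), THZ1 (36.2 and 60.4 CPM) and OkadaicAcid (46.2 and 78.4 CPM) 1 well lay below the DMSO range and 1 within it. The CDT1 differences there were -0.65, -0.80 and -0.45, past the test in each. OTS964 left wells at 73.2 and 104 CPM, inside the DMSO range, with a difference of 0.07 (95% interval -0.27 to 0.41) that did not pass. JQ1 (63.3 to 103, median 81.5 CPM) and A485 (56.3 to 92.1, median 84.3 CPM) also stayed inside it and did not pass.

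CDC6, the partner of CDT1 in loading, rose in 3 treatments (Panobinostat, Quisinostat and JQ1) and fell in 3 (DRB, Phendione and ActD). DMSO wells held 48.5 to 89.8 (median 61.4) CPM. Panobinostat wells held 114 and 123 and Quisinostat wells 99.8 and 105, all above the highest DMSO well. JQ1 wells held 82.4 to 105 (median 98.0), and only the lowest 2 of the 6 overlapped DMSO. CDC6 rose by 0.95 (SE 0.13) under Panobinostat (edgeR adjusted p = 1.51e-09), by 0.74 (SE 0.12) under Quisinostat (edgeR adjusted p = 8.49e-07) and by 0.58 (SE 0.10) under JQ1 (edgeR adjusted p = 9.16e-06). Without the first plate column the JQ1 difference was 0.50 and still passed, while ERCC scaling gave 0.27, which did not. DRB wells held 43.7 and 39.6 CPM and Phendione wells 41.3 and 41.7, below every DMSO well, with differences of -0.55 and -0.56 that passed (without the first column DRB gave -0.52, which did not). Under ActD (34.2 to 60.3, median 50.4 CPM) the groups overlapped and CDC6 fell by 0.32 (edgeR adjusted p = 0.027). AZ5576 (39.3 to 79.5, median 49.7 CPM), OTS964 (56.5 and 48.0), THZ531 (44.9 and 49.9) and A485 (45.7 to 72.7, median 61.7) did not pass, nor did IBET_762 (difference 0.23), Vorinostat (0.06) or dBET1 (-0.23). Set against the methyltransferase inhibitor wells, which had less CDC6 than DMSO, the 3 falls no longer passed (differences -0.34, -0.35 and -0.11) and the 3 rises did.

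ORC1, the largest subunit of the origin recognition complex, was lower in 5 treatments. DMSO wells held 14.7 to 41.6 (median 27.9) CPM, and the wells held 5.61 and 6.24 under THZ531, 7.79 and 11.7 under Triptolide and 10.0 and 13.1 under A159, all below DMSO. The differences were -2.16, -1.47 and -1.22, past the test and resting on 4, 7 and 11 reads in all. Under ActD (3.71 to 15.8, median 12.6 CPM) ORC1 differed by -1.34 (SE 0.28, adjusted p = 1.38e-06) and under AZ5576 (6.62 to 26.2, median 20.8 CPM) by -0.49 (SE 0.22, adjusted p = 0.0471) by edgeR, both with wells inside the DMSO range. ORC6, the smallest subunit, was lower under AZ5576 (-0.71), DRB (-1.30), OTS964 (-1.34) and THZ531 (-1.42). Under JQ1 it was higher by 0.55 and passed, with its higher values in the first column: those wells held 38.6 to 64.2 CPM, the other 2 wells 35.3 and 28.6, and without that column the difference was 0.20 and did not pass.

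Of the ring itself, MCM2 wells held 6.99 to 31.2 (median 18.6) CPM under DMSO and 2.23 to 14.8 (median 10.5) under ActD, with some overlap, and MCM2 fell by 0.94 (SE 0.31) under ActD alone (edgeR adjusted p = 0.00326). AZ5576 (3.31 to 24.6, median 16.6 CPM), JQ1 (0 to 19.1, median 15.3), A485 (16.6 to 34.6, median 28.8), OTS964 (20.9 and 36.5) and THZ531 (16.8 and 9.36) overlapped DMSO and did not pass. MCM3 was lower under AZ5576 (-0.82, edgeR adjusted p = 6.19e-07), A159 (-0.94), ActD (-0.55) and YKL5124 (-0.57). MCM7 fell under ActD (-0.47), A159 (-0.37), AZ5576 (-0.33) and Quisinostat (-0.28), and MCM5 under JQ1 (-0.51, and -0.51 without the first column, which did not pass) and ActD (-0.33). MCM4 rose under OkadaicAcid alone (0.45), and MCM6 passed nowhere, with differences between -0.40 and 0.39 over the 74 treatments. Of the factors that activate the ring, CDC45 rose under A485 (0.31, edgeR adjusted p = 0.00833), which without the first column was 0.18 and did not pass. GINS2 rose under Quisinostat (0.45) and Panobinostat (0.36), neither past the test on the ERCC scale (0.45 and 0.25), and fell under OkadaicAcid (-0.30), and GINS1 rose under ActD (0.60, and -0.32 on the ERCC scale). MCM10, which helps to start the forks, fell under ActD (-1.10) and passed under THZ1 with 1 read in 2 wells, 7.55-fold (95% counting interval 1.34 to 299.8) below DMSO. GINS3, a subunit of the same complex as GINS2, had few reads: DMSO wells held 3.77 to 14.3 (median 8.09) CPM. It had 0 reads in both THZ1 wells (at least 1.91-fold lower than DMSO, with a floor of 3 reads over the group), and 1 read in 2 wells under A159, DRB and OTS964. Those counts put it 8.67-fold (1.53 to 345), 8.86-fold (1.56 to 352) and 9.04-fold (1.60 to 359.6) below DMSO, past edgeR's test in all 4 treatments. Under AZ5576 (1.64 to 9.91, median 3.54 CPM) it fell by 1.15, and under OkadaicAcid (14.4 and 19.0 CPM) it rose by 0.86, above every DMSO well. ActD (2.02 to 11.2, median 5.99 CPM), JQ1 (0 to 10.1, median 6.68), A485 (0 to 17.6, median 12) and THZ531 (2.81 and 6.24) overlapped DMSO and did not pass. GINS4 passed nowhere.

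**Figure D4:**
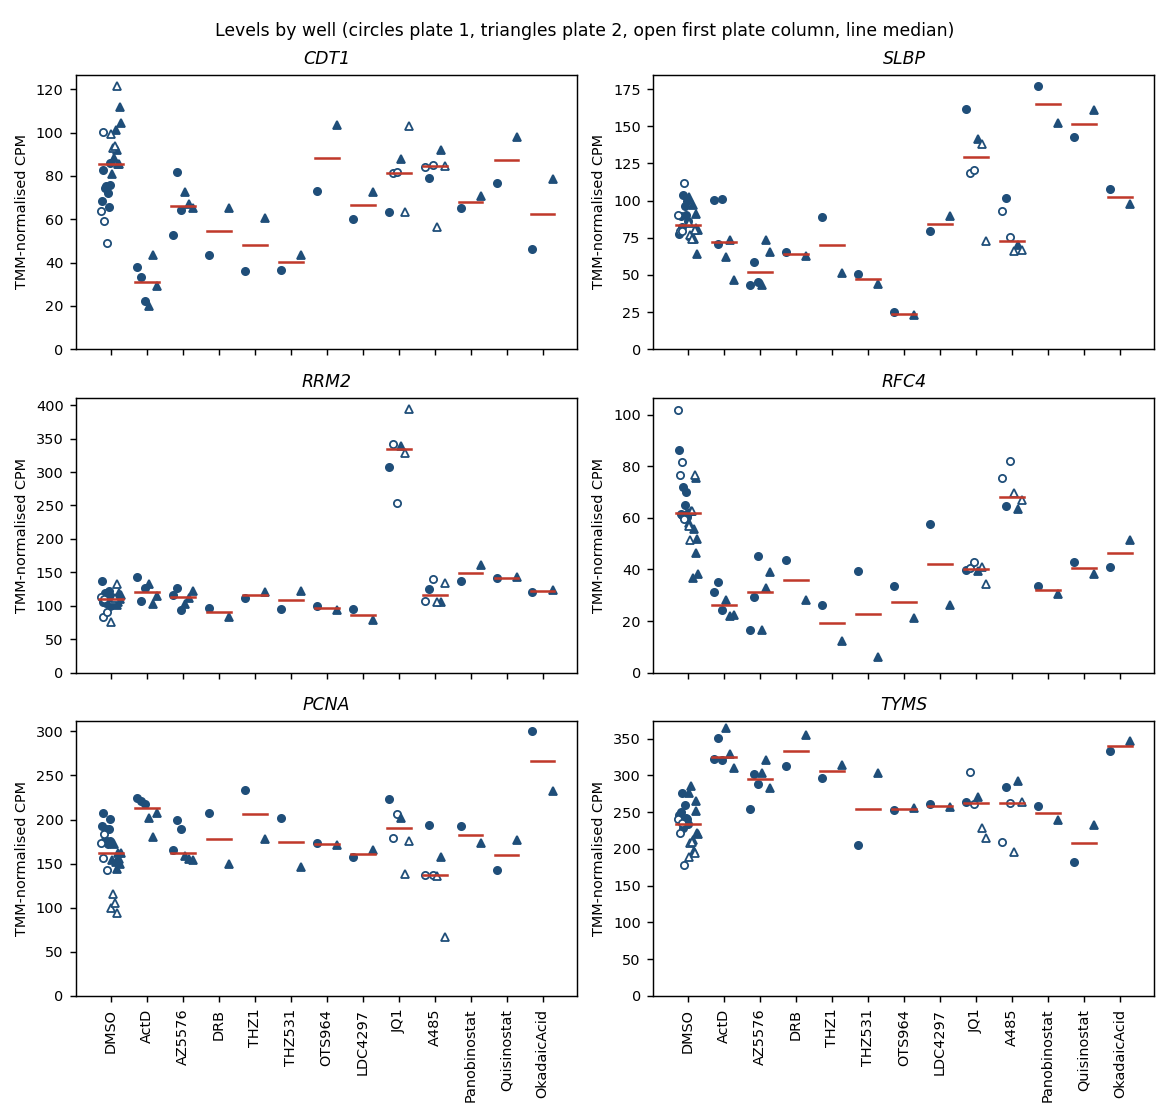
Normalised CPM of CDT1, SLBP, RRM2, RFC4, PCNA and TYMS in each well of DMSO and 12 treatments (circles plate 1, triangles plate 2, open symbols the first plate column, red line the median). All 6 ActD wells of CDT1 and both OTS964 wells of SLBP sit below every DMSO well, and all 6 JQ1 wells of RRM2 sit above.

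Of the clamp and its loader, RFC4 was the member called most often, lower in 12 treatments and higher in none. RFC4 is a small subunit of the complex that opens PCNA. DMSO wells held 36.6 to 102 (median 61.8) CPM. ActD wells held 21.8 to 35.3 (median 26.2) and THZ1 wells 26.4 and 12.1, all below DMSO, and AZ5576 wells 16.5 to 45.1 (median 31.1), with overlap. RFC4 fell in all 3, with differences of -1.18 (SE 0.17, adjusted p = 1.0e-10) under ActD, -1.70 (SE 0.42, adjusted p = 0.000145) under THZ1 and -0.97 (SE 0.17, adjusted p = 4.70e-08) under AZ5576 by edgeR. It was also lower under THZ531 (39.3 and 6.24 CPM, -1.39), OTS964 (33.5 and 21.1 CPM, -1.18) and Panobinostat (33.7 and 30.5 CPM, -0.94). The OTS964 and Panobinostat wells lay below every DMSO well, and the THZ531 wells straddled the lowest. Smaller falls passed under A159 (-0.93), DRB (-0.76), GSK_LSD1_2HCl (-0.67, all genes 1.64%), JQ1 (-0.63), Quisinostat (-0.61) and IBET_762 (-0.54). Under JQ1 the wells held 34.3 to 42.9 (median 40.2) CPM, and the difference without the first column was -0.58 and passed. The wells held 63.6 to 81.9 (median 68.2) CPM under A485, which did not pass. Because DMSO had more RFC4 than the methyltransferase inhibitor wells, the reference matters: against those wells ActD (-0.86), AZ5576 (-0.65), OTS964 (-0.87), Panobinostat (-0.62), THZ1 (-1.38) and THZ531 (-1.07) still passed, while A159 (-0.62), DRB (-0.44), GSK_LSD1_2HCl (-0.35), JQ1 (-0.31), Quisinostat (-0.29) and IBET_762 (-0.22) did not. EIF4A2, a gene on the opposite strand, overlaps the last exon of RFC4, and whether the counting used strand is not given in the sources used here.

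PCNA itself, the sliding clamp, was higher in 3 treatments and lower in 2. DMSO wells held 93.9 to 207 (median 162) CPM, with lower values in the first column (median 129, against 173 elsewhere). OkadaicAcid wells held 299.8 and 233, above every DMSO well, and PCNA rose by 0.69 (SE 0.10, edgeR adjusted p = 1.35e-08), by 0.69 on the ERCC scale. Under ActD (180.2 to 225, median 213 CPM) it rose by 0.34 (SE 0.08) with overlap (edgeR adjusted p = 0.000217), and was -0.56 on the ERCC scale. JQ1 wells held 138 to 224 (median 191) CPM, and the rise of 0.24 (edgeR adjusted p = 0.0449) was 0.31 without the first column and -0.08 on the ERCC scale. PCNA was lower under GSK_J4_HCl (109.5 and 109 CPM, -0.58; all genes 0.912%) and MI-3 (118 and 98.8 CPM, -0.60; all genes 1.76%), within the range of the first-column DMSO wells. Neither passed against the methyltransferase inhibitor wells (-0.50 and -0.51). AZ5576 (154 to 199.9, median 162 CPM), A485 (66.8 to 194, median 137), OTS964 (174 and 171) and THZ531 (202 and 147) did not pass. RFC2, another small subunit of the loader, held 50.1 to 104 (median 83.8) CPM in DMSO and 90.1 to 119 (median 101) under A485, where it rose by 0.33 (SE 0.10, edgeR adjusted p = 0.0375). The A485 wells sat at the top of the DMSO range, and the difference was 0.35 without the first column, which did not pass. RFC2 fell under ActD (42.3 to 92.6, median 59.1 CPM, -0.38) and under UNC1215 (55.7 and 60.3 CPM, -0.52, all genes 0.815%), with overlap in each, and neither passed against the methyltransferase inhibitor wells (-0.18 and -0.32). AZ5576 (60.1 to 99.1, median 70.4 CPM), JQ1 (57.5 to 93.6, median 74.9), OTS964 (69.0 and 63.3) and THZ531 (47.7 and 62.4) did not pass. RFC1, the large subunit, fell under AZ5576 (-1.13) and ActD (-1.05), and RFC3 under OTS964 (-1.0) and AZ5576 (-0.50). RFC5 passed nowhere.

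Of the 8 polymerase and primase genes, POLE, the catalytic subunit of the leading-strand polymerase epsilon, moved in both directions. DMSO wells held 18.8 to 70.9 (median 36.9) CPM, higher in the first column (median 53.0) than elsewhere (33.4). AZ5576 wells held 9.91 to 17.2 (median 15.6), DRB wells 18.2 and 4.66 and OkadaicAcid wells 17.5 and 17.9, all below DMSO. POLE fell in all 3, with differences of -1.23 (SE 0.27, adjusted p = 4.22e-06) under AZ5576, -1.49 (SE 0.48, adjusted p = 0.0023) under DRB and -0.98 (SE 0.30, adjusted p = 0.00303) under OkadaicAcid by edgeR. Smaller falls passed under Panobinostat (14.5 and 25.7 CPM, -0.84) and ActD (16.1 to 28.3, median 23.9 CPM, -0.60), both with overlap, and neither passed without the first column (-0.70 and -0.44). JQ1 wells held 44.1 to 87.9 (median 66.6) CPM, and POLE was higher by 0.73 (SE 0.16, edgeR adjusted p = 0.000438). The JQ1 wells of the first column held 58.5 to 87.9 CPM and the other 2 held 44.1 and 46.1, and without the column the difference was 0.49 and did not pass. A485 (28.5 to 79.5, median 38.9 CPM), OTS964 (18.8 and 28.8) and THZ531 (19.6 and 18.7) did not pass.

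POLD3, an accessory subunit of polymerase delta, was sparse, with 3.32 to 18.9 (median 8.44) CPM in DMSO. AZ5576 wells held 0 to 3.31 (median 2.46), all below DMSO, and POLD3 fell by 2.16 (SE 0.73, edgeR adjusted p = 0.000447). It had 1 read in 2 wells under A159 and under OTS964, which is 8.31-fold (1.47 to 330.4) and 8.66-fold (1.53 to 345) lower than DMSO. THZ531 also left 1 read (0 and 3.12 CPM) and did not pass, nor did ActD (1.98 to 11.1, median 2.23), JQ1 (3.38 to 12.9, median 6.84) or A485 (2.60 to 29.8, median 6.86). PRIM1, the catalytic primase subunit, was higher in 3 treatments: DMSO wells held 14.7 to 41.2 (median 33.3) CPM, OTS964 wells 43.9 and 59.5, OkadaicAcid wells 49.3 and 44.8 and ActD wells 29 to 55.7 (median 44.9). The OTS964 and OkadaicAcid wells lay above DMSO and the ActD wells overlapped. PRIM1 rose by 0.67, 0.53 and 0.45 (edgeR adjusted p of 0.0363, 0.0265 and 0.0128). The first pair no longer passed without the first column (0.59 and 0.45), and on the ERCC scale OTS964 gave -0.07 and ActD -0.47. THZ531 wells held 50.5 and 56.2 CPM, with a difference of 0.70 that did not pass (edgeR adjusted p = 0.073). AZ5576 (27.9 to 59.5, median 36.8 CPM), JQ1 (23.7 to 52.3, median 36.7) and A485 (17.6 to 49.3, median 36.9) did not pass either. POLA2, the regulatory subunit of polymerase alpha, fell under AZ5576 (-0.63), POLE2 under Quisinostat (-1.03) and POLD1, the catalytic subunit of delta, under ActD (-0.49). POLA1 and PRIM2 passed nowhere, at medians of 6.26 and 7.91 CPM in DMSO.

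RPA, which covers single-stranded DNA, rose under most compounds that changed it. RPA3, the smallest subunit, was higher in 9 treatments and lower in none. DMSO wells held 97.3 to 167 (median 144) CPM. The 6 ActD wells held 174 to 247 (median 196), the DRB wells 204 and 207 and the 4 IBET_762 wells 211, 216, 179.9 and 178, all above DMSO. RPA3 rose by 0.48 (SE 0.08) under ActD (edgeR adjusted p = 1.40e-07), by 0.51 (SE 0.13) under DRB and by 0.44 (SE 0.08) under IBET_762 (edgeR adjusted p = 3.18e-05). LDC4297 (203 and 187 CPM, 0.44), Panobinostat (198 and 175, 0.37), Quisinostat (185 and 169.7, 0.30) and OkadaicAcid (179 and 171, 0.28) also passed with wells above DMSO. AZ5576 (139 to 215, median 197 CPM, 0.41) and JQ1 (123 to 208, median 161, 0.30) passed with overlap, and the JQ1 rise was 0.49 without the first column. On the ERCC scale RPA3 was -0.44 under ActD, -0.34 under AZ5576, -0.36 under DRB and -0.04 under JQ1, while under IBET_762 (0.39), LDC4297 (0.31), Panobinostat (0.26), Quisinostat (0.30) and OkadaicAcid (0.27) it stayed above 0 and no longer passed. A485 (105 to 203, median 152 CPM), OTS964 (174 and 180.4) and THZ531 (208 and 149.8) did not pass.

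RPA2, the subunit that checkpoint kinases phosphorylate, held 52.7 to 108 (median 84.6) CPM in DMSO and 132 and 119 under OkadaicAcid, above every DMSO well. It rose by 0.54 (SE 0.13) there (edgeR adjusted p = 0.000794), and by 0.44 under DRB (105 and 131 CPM), 0.31 under ActD (76.7 to 125, median 111 CPM) and 0.28 under AZ5576 (71.6 to 142, median 106 CPM), with overlap. Those 3 did not pass without the first column (0.36, 0.24 and 0.20), where DMSO held less RPA2, and library size alone turned the AZ5576 value to -0.05. JQ1 (73.0 to 110.4, median 81.5 CPM), A485 (63.3 to 103, median 86.0), OTS964 (58.6 and 67.2) and THZ531 (81.4 and 71.8) did not pass. RPA1, the large DNA-binding subunit, held 17.5 to 52.0 (median 30.7) CPM in DMSO, 38 and 51.5 under OkadaicAcid, 33.4 to 49.5 (median 38.3) under ActD and 16.5 and 15.1 under Phendione. The Phendione wells lay below DMSO and the other groups overlapped. RPA1 rose by 0.57 under OkadaicAcid and 0.40 under ActD (-0.53 on the ERCC scale) and fell under Phendione (-0.91, edgeR adjusted p = 0.0134; all genes 7.44%), where the difference of -0.75 from the methyltransferase inhibitor wells did not pass. AZ5576 (16.6 to 32.7, median 27.3 CPM), JQ1 (20.6 to 41.1, median 37.5), A485 (17.6 to 39.8, median 28.5), OTS964 (23.0 and 19.2) and THZ531 (19.6 and 37.5) did not pass.

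FEN1, the flap endonuclease, held 39.8 to 79.6 (median 56.2) CPM in DMSO and 37.3 and 39.2 under Quisinostat, below every DMSO well. The difference there was -0.61 (SE 0.20, adjusted p = 0.0141) by edgeR. FEN1 also fell under ActD (22.3 to 55.7, median 41 CPM, -0.52) and AZ5576 (31.1 to 62.9, median 46.2 CPM, -0.36), both with overlap. LIG1, the ligase of the lagging strand, held 14.9 to 48.9 (median 29) CPM in DMSO and 11.1 to 26.2 (median 19.0) under ActD, where it fell by 0.63 (SE 0.22, edgeR adjusted p = 0.00935) with overlap. Ricolintostat wells held 14.7 and 20.3 CPM, a fall of 0.69 that passed (all genes 2.06%) but not against the methyltransferase inhibitor wells (-0.59). Neither gene passed under JQ1 (FEN1 36.3 to 78.5, median 44.7 and LIG1 15.6 to 50.7, median 39.8 CPM), A485 (32.7 to 66.8, median 55.2 and 25.6 to 46.5, median 35.6), OTS964 (41.8 and 51.8, and 29.3 and 30.7) or THZ531 (42.1 and 84.3, and 16.8 and 31.2), nor LIG1 under AZ5576 (6.62 to 34.3, median 21.9).

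The largest rise among the called pairs was that of RRM2, the S-phase subunit of ribonucleotide reductase, under JQ1. DMSO wells held 75.6 to 137 (median 109.5) CPM and the 6 JQ1 wells 253 to 395 (median 334), so that the lowest JQ1 well stood well above the highest DMSO well. RRM2 rose by 1.58 (SE 0.07) on the log2 scale (edgeR adjusted p = 2.01e-49), by 1.46 and 1.69 on each plate alone, by 1.55 without the first column and by 1.25 on the ERCC scale, past the test each time. The 4 wells of IBET_762, the other BET bromodomain inhibitor, held 197, 221, 177 and 203 CPM, also above every DMSO well, with a rise of 0.86 (SE 0.08, edgeR adjusted p = 8.23e-19). Panobinostat wells held 137 and 160.3 and Quisinostat wells 142 and 142, at or just above the top of the DMSO range, with rises of 0.43 and 0.38 that passed, though not on the ERCC scale (0.32 and 0.37). RRM2 wells held 99.3 and 118 under dBET1, with a difference of -0.01 (95% interval -0.22 to 0.21) that did not pass. ActD (103 to 142, median 121 CPM), AZ5576 (94.5 to 126, median 114), OTS964 (100.4 and 94.1), THZ531 (95.4 and 122) and A485 (106 to 141, median 116) overlapped DMSO and did not pass.

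RRM2 was also lower in 6 treatments that changed few genes: A366 (73.7 and 67.0 CPM, -0.63; all genes 1.78%), YKL5124 (75.8 and 67.3, -0.61), JIB_04 (73.7 and 80.4, -0.51; 2.34%), SGI_1027 (79.8 and 74.5, -0.50; 0.95%), CPI_360 (75.3 and 84.4, -0.45; 3.36%) and the solvent EtOH (81.2 and 75.0, -0.49; 0.795%). All passed, and of the 6 only the A366 wells lay wholly below DMSO. A366 and CPI_360 are themselves among the methyltransferase inhibitors. Against the methyltransferase inhibitor wells, YKL5124 (-0.32), JIB_04 (-0.22), SGI_1027 (-0.21) and EtOH (-0.19) did not pass, while JQ1 (1.87), IBET_762 (1.15), Panobinostat (0.73) and Quisinostat (0.67) did. TYMS, which makes thymidylate, was higher in 6 treatments and lower in none. DMSO wells held 178 to 285 (median 234) CPM, ActD wells 311 to 364 (median 326), OkadaicAcid wells 334 and 347 and DRB wells 313 and 354, all of these above DMSO. TYMS rose by 0.53 (SE 0.09) under OkadaicAcid (edgeR adjusted p = 9.74e-07), by 0.50 (SE 0.07) under ActD (edgeR adjusted p = 7.55e-11) and by 0.49 (SE 0.11) under DRB. The THZ1 wells (297 and 314 CPM, 0.37) lay above DMSO, while A159 (283 and 298, 0.30) and AZ5576 (255 to 321, median 295, 0.31) overlapped it. All 3 passed, and only AZ5576 did without the first column (THZ1 0.33, A159 0.26). On the ERCC scale TYMS was -0.41 under ActD, -0.42 under AZ5576, -0.38 under DRB, -0.48 under THZ1 and -0.44 under A159, and 0.53 under OkadaicAcid. JQ1 (215 to 304, median 262 CPM), A485 (196 to 292, median 263), OTS964 (253 and 255) and THZ531 (205 and 303) did not pass. RRM1, the large reductase subunit, passed in no treatment.

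SLBP, the histone mRNA binding protein, was lower in 4 treatments and higher in 4. DMSO wells held 63.8 to 112 (median 83.6) CPM, OTS964 wells 25.1 and 23.0, THZ531 wells 50.5 and 43.7 and A159 wells 48.2 and 56.6, each below every DMSO well. SLBP fell by 1.84 (SE 0.30) under OTS964 (edgeR adjusted p = 1.56e-09), with the same difference of -1.84 on either plate alone. The differences under THZ531 and A159 were -0.87 and -0.73. AZ5576 wells (42.9 to 73.7, median 52.0 CPM) overlapped DMSO, with a difference of -0.59 (SE 0.13, adjusted p = 1.77e-05) by edgeR. SLBP rose under Panobinostat (177 and 152 CPM) by 0.93 (SE 0.12, edgeR adjusted p = 3.52e-10) and under Quisinostat (143 and 161 CPM) by 0.82 (SE 0.12), above every DMSO well. It rose under JQ1 (73.0 to 162, median 129.6 CPM, with overlap) by 0.63 (SE 0.10, edgeR adjusted p = 1.14e-07) and under IBET_762 (136, 111, 114 and 115 CPM) by 0.46. Without the first column the JQ1 rise was 0.80, and on the ERCC scale 0.27 for JQ1, and 0.41 for IBET_762, which did not pass, and 0.81 for Panobinostat, which did. ActD (46.9 to 101, median 71.9 CPM) and A485 (66.3 to 101, median 72.7) did not pass.

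Of the cyclin E genes, CCNE1 fell in 3 treatments and CCNE2 in 2, at low counts. CCNE1 wells held 10.4 to 31.3 (median 18.6) CPM under DMSO, 0 to 23.1 (median 9.2) under AZ5576, 10.9 and 4.66 under DRB and 8.03 and 6.53 under A159, of which only A159 lay wholly below DMSO. CCNE1 fell in all 3, with differences of -1.07 (SE 0.33, adjusted p = 0.00129) under AZ5576, -1.26 (SE 0.57, adjusted p = 0.041) under DRB and -1.43 (SE 0.61, adjusted p = 0.0326) under A159 by edgeR. ActD (6.67 to 22.3, median 12.6 CPM), JQ1 (7.48 to 51.5, median 18.2), A485 (7.03 to 26.5, median 19.6), OTS964 (2.09 and 21.1) and THZ531 (14.0 and 12.5) did not pass. CCNE2 wells held 0 to 18.9 (median 10.2) CPM under DMSO, 0 to 4.47 (median 2.12) under ActD and 0 to 6.62 (median 2.71) under AZ5576, overlapping at the low end. CCNE2 fell in both, with differences of -1.95 (SE 0.62, adjusted p = 0.00041) under ActD and -1.52 (SE 0.55, adjusted p = 0.00356) under AZ5576 by edgeR. Against the methyltransferase inhibitor wells these were -1.30, which passed, and -0.87, which did not. OTS964 (2.09 and 1.92 CPM) and THZ531 (5.61 and 3.12) left 2 and 3 reads and did not pass, nor did JQ1 (3.90 to 16.2, median 7.27) or A485 (0 to 19.6, median 8.82).

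Treatments were compared with each other directly in 11 contrasts, with the doses not matched and values given as the first named minus the second. AZ5576 against ActD differed in 1 member, CDT1, which was higher under AZ5576 by 1.14 (SE 0.19, edgeR adjusted p = 8.28e-07; 3.21% of all genes passed). THZ531 against OTS964 differed in ORC1 (-2.27) and CDT1 (-1.14), both lower under THZ531 (edgeR adjusted p of 0.0391 and 0.023; all genes 2.09%). DESeq2 called only CDT1 there and limma-voom neither. AZ5576 against OTS964 differed in SLBP (1.24, edgeR adjusted p = 0.0016) and RPA2 (0.72), both lower under OTS964 (all genes 5.18%), and limma-voom called only SLBP. CDT1 wells thus lay below DMSO under ActD and Triptolide, where SLBP did not pass, and SLBP wells under OTS964, where CDT1 did not pass, while both genes lay below DMSO under THZ531 and A159. THZ1 against YKL5124 differed in CDC6 (-0.89) and RRM2 (0.70, and -0.28 on the ERCC scale; all genes 3.71%), of which DESeq2 called neither and limma-voom only RRM2. JQ1 against A485, which share the shallow first column, differed in 10 members (all genes 14.3%). RRM2 (1.46, edgeR adjusted p = 2.57e-30), SLBP (0.72), CDC6 (0.54) and PCNA (0.39) were higher under JQ1. MCM2 (-0.93), MCM5 (-0.81), RFC4 (-0.78), RRM1 (-0.49), RFC2 (-0.48) and CDC45 (-0.32) were lower. With the 2 wells of each outside the first column, RRM2 (1.49), SLBP (0.81), MCM5 (-0.93) and RFC2 (-0.55) still passed and the other 6 did not. Panobinostat against JQ1 differed in POLE (-1.57), RRM2 (-1.14) and GINS2 (0.40), on a background of 9.46%. Without the first column POLE (-1.19) and RRM2 (-1.14) passed and GINS2 (0.31) did not.

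In 5 contrasts no member passed edgeR's test, and the intervals show what that leaves room for. The number with an unadjusted p under 0.05, the number called by DESeq2 and the number called by limma-voom were 2, 0 and 0 for AZ5576 against THZ531, 3, 0 and 0 for THZ1 against THZ531, 2, 0 and 0 for LDC4297 against YKL5124, 1, 0 and 0 for Panobinostat against Quisinostat and 1, 0 and 0 for Triptolide against ActD. All genes passed at 1.8%, 0.669%, 0.0097%, 0.0097% and 0.766%. For CDT1 the difference was 0.28 (95% interval -0.49 to 1.04) between THZ1 and THZ531, related covalent inhibitors, and 0.09 (95% interval -0.57 to 0.76) between Triptolide and ActD. For SLBP it was 0.12 (95% interval -0.19 to 0.43) between Panobinostat and Quisinostat, both hydroxamates, and for RRM2 0.29 (95% interval -0.07 to 0.64) between the CDK7 inhibitors. A difference of 2-fold in CDT1 or SLBP lies outside the intervals for Triptolide against ActD and for Panobinostat against Quisinostat.

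Neighbouring parts of the pathway were read from lists of other genes. Of 23 further replication factors tested, ActD raised 5 and lowered 7 and AZ5576 raised 3 and lowered 9 (0 higher and 23 lower and 0 higher and 22 lower on the ERCC scale). TICRR, which helps CDC45 to load, fell under ActD (-2.13) and AZ5576 (-1.84) and rose by 2.15 under OTS964. TOPBP1, a partner of TICRR, fell too (-1.64 and -1.55). A485 raised 4 of the 23 and lowered none (1 higher and 0 lower on the ERCC scale), among them TICRR (0.80) and the nuclease DNA2 (0.82), neither of which passed without the first column (0.45 and 0.71). Of 7 genes of replication-coupled chromatin, ActD and AZ5576 each lowered 5 and raised none, OTS964 lowered 3 and JQ1 raised 2. On the ERCC scale ActD, AZ5576 and OTS964 each lowered all 7 and JQ1 raised 1. CHAF1A, the large subunit of chromatin assembly factor 1, fell under ActD (-2.17) and AZ5576 (-2.45), and the histone chaperone ASF1B rose by 0.75 under JQ1 (0.40 on the ERCC scale, and 0.93 without the first column, both past the test) and by 1.21 under Panobinostat. Of 10 other genes of nucleotide supply, AZ5576 raised 4 and lowered none, and ActD raised 3 and lowered 1, against 0 higher and 9 lower and 0 higher and 10 lower on the ERCC scale. DUT, which removes dUTP, rose by 0.62 under AZ5576 (-0.11 on the ERCC scale), and TK1, thymidine kinase, by 1.22 under Panobinostat (1.10). Of 18 genes of the E2F and RB pathway, AZ5576 raised 2 and lowered 6 and ActD raised 3 and lowered 6, while on the ERCC scale both gave 0 higher and 15 lower. A485 raised none and lowered 4 (also 4 on the ERCC scale), among them CCND3, cyclin D3 (-1.05, and -0.99 without the first column, which passed). E2F1 fell under AZ5576 (-1.79), ActD (-1.61) and OkadaicAcid (-1.66), while CDKN1A, the CDK inhibitor p21, rose by 1.47 under JQ1 (1.16 on the ERCC scale, and 1.28 without the first column, which did not pass) and 3.20 under Panobinostat. All named changes passed edgeR's test on the TMM scale, to be read against the shares of all genes given above.

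The members with TTTNNCGC in their promoter window are set beside the other members here. Under ActD 8 of the 20 with a match fell and 3 rose (median -0.34), and of the 14 without a match 6 fell and 2 rose (median -0.29). Under AZ5576 9 of the 20 fell and 1 rose (median -0.30), against 5 and 0 of the 14 (median -0.16). JQ1 raised 4 of the 20 and lowered 0, and raised 2 and lowered 1 of the 14. CDT1 and PCNA, whose promoters above both carry the match, differed in direction under ActD on the TMM scale (-1.44 and 0.34). On the ERCC scale PCNA fell under ActD, as given above. No difference between the 2 sets was tested.

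Counting leaves some members uncertain. A gene on the opposite strand overlaps the last exon of MCM2, GINS2, GINS4, RFC4 (EIF4A2), RRM1, TYMS (ENOSF1) and CCNE2 (INTS8), and without strand their reads cannot be told apart. PCNA, RFC3, RFC5, RPA2, FEN1, RRM2 and TYMS have pseudogene copies by name, and how reads shared with a copy were counted is not given in the sources used here.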

How the data were processed

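MAC-seq 3′ mRNA libraries from 192 wells of K562 cells on 2 plates were analysed, with each well's treatment taken from the submitters' well annotation. The authors deposited counts of reads per gene and well, not normalised, in which copies of 1 molecule count more than once. These deposited columns were given the unit expected counts because their summary lines hold fractions, while every gene line is a whole number, so that nothing was rounded. The submitters' processing notes name the tools cutadapt 2.1, FastQC 0.11.6, R 4.0.2 and bcl2fastq 2.17.1.14, and the build hg19. No aligner or counting rule, nor whether counting used strand, is stated in those notes or the labels (not given in the sources used here). Of the lines of the tables, 57905 were genes and 92 were ERCC spikes, and 6 summary lines that name no gene were left out.

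Genes were kept by edgeR's filterByExpr (10312 genes) and tested with edgeR 4.0.16 (glmQLFit and glmQLFTest, R 4.3.3) after TMM scaling, with all wells in 1 model of treatment plus plate and Benjamini-Hochberg adjustment over all genes at 0.05. For speed the null models of the test were fitted with a solver written for this layout, which gave the same calls as edgeR's own on 300 genes checked. Both plates carry each treatment in the same wells. The plate named in the labels is a term of the model, which has no term for well position. Wells at the same position on both plates thus enter as separate wells, though duplicates are described as technical. The p-values do not allow for values shared by position. CPM are on the TMM scale, and 95% intervals of differences were computed from the SE by the normal approximation. Levels are given for each well, or as lowest, median and highest where a group has more than 5 wells. The 41 genes, the lists and the contrasts were chosen with earlier results of these data known. Wells are given for the 3 members of each role called in most treatments and always for 8 members (CDC6, CDT1, CCNE1, CCNE2, PCNA, RRM2, SLBP and MCM2), and other members are given where they passed. Alternatives were DESeq2 1.42.0, limma-voom (limma 3.58.1), library size or ERCC scaling, no filter, no plate term, the first plate column as a term or left out, only the wells compared, a fold change of at least 1.5, each plate alone, and the wells of 17 methyltransferase inhibitors as reference. The last, and leaving out every well of the first column, were chosen after seeing the data.

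The test was run on simulated counts for 10312 genes of which 200 were changed. For a group of 2 wells, modelled on THZ531 against DMSO, it recovered 32% of 2-fold and 75% of 4-fold changes with 8 false calls. For 6 wells, modelled on AZ5576 against DMSO, it recovered 70% and 93% with 8 false calls. The simulated counts held no plate or first-column effect, and as many genes were raised as lowered. The dispersions used were not estimated gene by gene, and the gene means came from the DMSO wells. In the data 1571 genes passed under THZ531 and 4881 under AZ5576, so these rates may not hold there. Same-position wells on the 2 plates differed with 1.10 to 2.71 times the Poisson variance (chi-square per degree of freedom, median 1.43 over 96 pairs), and 0 pairs were identical. Intervals on ratios of reads cover counting error only. Promoter windows were read from the RefSeq promoter table on GRCh38.p14 by gene symbol, since the counts are on hg19, and no coordinates were converted.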

Additional observations from a re-analysis of the deposited data

Results flagged for a closer look

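Of the 60 groups of 4 to 10 wells examined, each a gene in 1 treatment, 3 held a well far from the others of its group. Chance gives about 1 in 20 groups. RFC2 stood at 99.1 CPM in 1 AZ5576 well of plate 2 (30 reads), where the next well held 72.8 and the lowest 60.1. PRIM1 stood at 59.5 CPM in the same well (18 reads), with the next at 39.7 and the lowest at 27.9. CCNE1 stood at 51.5 CPM in 1 JQ1 well of plate 2 (12 reads), a well of the shallow first plate column, with the next at 23.1 and the lowest at 7.48. None of these 3 genes passed edgeR's test in the treatment concerned.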

How the results depend on the processing

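Counts of members called against DMSO moved as follows, the cause not tested. ERCC scaling gave 40 of 41 for AZ5576 (19 with TMM) and ActD (23), 32 for DRB (10), 34 for THZ1 (5), 36 for THZ531 (5), 31 for OTS964 (7), 14 for JQ1 (9), 4 for Panobinostat (7), 4 for OkadaicAcid (11) and 0 for LDC4297 (1). Library size alone gave 31 for AZ5576, 13 for OTS964 and 8 for THZ1. A fold change of at least 1.5 left 11 for AZ5576, 10 for ActD, 6 for DRB, 4 for JQ1, 4 for Panobinostat, 3 for OkadaicAcid and 0 for LDC4297. Without a low-count filter THZ1 had 1, OTS964 4, OkadaicAcid 7 and LDC4297 0. DESeq2 called 2 for THZ1 and 7 for OkadaicAcid, limma-voom 3 for THZ1 and 4 for OTS964. Only the wells compared gave 3 for THZ1 and 0 for LDC4297, and the methyltransferase inhibitor reference 5 for DRB, 3 for OTS964 and 0 for LDC4297. Each plate alone (fewer wells) gave 7 to 10 for AZ5576, 11 to 14 for ActD, 0 to 2 for DRB, 0 to 1 for THZ1, 0 to 1 for THZ531, 1 to 2 for OTS964, 3 to 5 for JQ1, 2 to 3 for Panobinostat, 2 and 2 for OkadaicAcid and 0 and 0 for LDC4297. Leaving out all wells of the first plate column moved none of these 10 counts by over 1.5 times. A485 (2 members higher with TMM) gave 1 without that column, neither of the 2, and 0 with ERCC scaling and 8 against the methyltransferase inhibitors. A241 (0) gave 1, 0 and 5.

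The plate served as the replicate block. With no replicate block the count was 18 for AZ5576, 21 for ActD, 10 for DRB, 4 for THZ1, 6 for THZ531, 7 for OTS964, 8 for JQ1, 6 for Panobinostat, 8 for OkadaicAcid and 0 for LDC4297, and 10 of 91 single-gene results were no longer called. Other settings ended between 6 (only the wells compared, of 71) and 64 (plate 1 alone, of 91) of these calls. Directions turned under ERCC scaling for PCNA (-0.56), PRIM1 (-0.47), RPA1 (-0.53), RPA2 (-0.59), RPA3 (-0.44), TYMS (-0.41) and GINS1 (-0.32) with ActD, for RPA2 (-0.44), RPA3 (-0.34) and TYMS (-0.42) with AZ5576, for RPA2 (-0.43), RPA3 (-0.36) and TYMS (-0.38) with DRB, for PCNA (-0.077) and RPA3 (-0.044) with JQ1, for PRIM1 (-0.073) with OTS964, for TYMS (-0.48) with THZ1, for TYMS (-0.44) with A159 and for RRM2 in THZ1 against YKL5124 (-0.28). Library size alone turned RPA2 (-0.045) and TYMS (-0.011) with AZ5576. With 2 wells a group the test recovered 32% of simulated 2-fold changes over all genes, and recovery was not tested for the sparse members alone.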

Other observations

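Mitotic genes were read beside the replication genes from a list of 24, of which 23 were tested. AZ5576 raised 1 and lowered 15, ActD raised 3 and lowered 12 and DRB raised 2 and lowered 12, with medians of -0.49, -0.48 and -0.62 on the log2 scale. On the ERCC scale the 3 gave 0 higher and 23 lower, 0 higher and 23 lower and 0 higher and 21 lower. AURKA, the Aurora kinase of the spindle poles, fell under AZ5576 (-2.46), ActD (-1.73) and Panobinostat (-1.32). BIRC5, the survivin subunit of the chromosomal passenger complex, rose by 0.42 under AZ5576 and 0.45 under ActD on the TMM scale (-0.30 and -0.45 on the ERCC scale), while AURKB, the kinase of that complex, fell in both (-0.97 and -0.70). OkadaicAcid raised 4 and lowered 3, with rises of CCNB1 by 0.53, CCNB2 by 0.71 and CDK1 by 0.51. A485 raised CCNB2 (0.42), CDK1 (0.35) and PLK1 (0.32) and lowered none on the TMM scale, and on the ERCC scale 0 higher and 0 lower passed. Without the first plate column CCNB2 (0.54) and CDK1 (0.49) passed and PLK1 (0.37) did not. Each change named passed edgeR's test on the TMM scale, and the shares of all genes called are those given in the report. The 41 replication genes together took a median of 0.255% of a well's counts in DMSO, 0.187% under AZ5576, 0.213% under ActD, 0.284% under JQ1 and 0.285% under A485. These are shares of raw counts, without TMM scaling, and single DMSO wells ran from 0.241% to 0.304%. Most JQ1 and A485 wells lie in the first plate column, and its effect on these shares was not tested. On the TMM scale the median log2 difference of the 41 genes was 0.009 under JQ1 and 0.13 under A485.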
